A study of Mus musculus with 19 samples.

Results

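Polyamine metabolism was described in the striatum through 10 genes: Odc1, Amd1, Amd2, Srm, Sms, Sat1, Smox, Azin1, Oaz1 and Oaz2. They were chosen by name as the genes that make and break down polyamines and control that balance, after Odc1 had stood out in KI-571 mice in these same data, so the KI-571 values are given as a description, with no p-value for these genes and nothing supported by the calls in that genotype. The 10 genes are among 54232 counted genes, and all 10 passed the filter on low counts that left 18521 genes for testing. RNA was sequenced from the striatum of 6-month-old mice on a C57BL/6 background, from 7 WT animals and from 4 animals each of the KI-96, KI-571 and KI-FL genotypes. KI-FL mice carry 1 full-length mutant Htt allele (HD140Q knock-in) with the expanded CAG repeat. In KI-96 and KI-571 mice this allele was truncated with CRISPR-Cas9, so that a short (KI-96) or a longer (KI-571) N-terminal mutant huntingtin fragment is made from the endogenous gene. The study describes heterozygous mice with a single KI-571 founder and several KI-96 founders, so KI-571 stands for 1 edited line. The labels do not give the founder of a KI-96 mouse. The sex and the batch in which mice were sacrificed are not in the labels, and neither is the WT sample that the study left out as a possible outlier, so all 7 WT mice were kept.

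Polyamines (putrescine, spermidine and spermine) are small, positively charged molecules that bind nucleic acids and ion channels, and spermidine is the source of the hypusine residue of the translation factor eIF5A. Odc1 makes putrescine from ornithine, Amd1 supplies the aminopropyl donor, and Srm and Sms add aminopropyl groups to give spermidine and spermine. Sat1 acetylates spermidine and spermine for export or breakdown, and Smox oxidizes spermine back to spermidine. The antizymes Oaz1 and Oaz2 bind the Odc1 protein and send it to the proteasome, and the antizyme inhibitor Azin1 frees it. Much of this control acts on translation and protein stability, which read counts do not measure.

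Several of these genes have near-identical copies in the genome, which matters because the counting kept only reads with a unique position. Of the 100-base windows of the Amd1 transcript, 76.4% also occur in transcripts of other genes, as do 72.9% of those of Amd2, 41.8% of Oaz1, 27.7% of Sms and 19.6% of Odc1. The shares were 5.45% for Azin1, 3.33% for Oaz2 and 0.376% for Sat1, and no window of Srm or Smox was shared. The results turn on 2 pairs. Gm7993, a processed pseudogene (an intronless copy) of Odc1, was singled out after its values were seen. It lies at chr5:95974240-95975623 on the plus strand, and Odc1 at chr12:17544794-17551505, also on the plus strand (GRCm38). Over 1366 aligned positions the copies differ at 31 and are 97.7% identical, with 35 gap positions not counted in this share. Of the 2109 windows of Odc1, 149 (7.06%) are found unchanged in Gm7993. A read that lies within the aligned part can be assigned to one of them only where it covers a differing position or a gap. The stretch below shows a part of the Odc1 coding sequence (positions 278 to 377, chr12:17547951-17548050) and its match in Gm7993 (chr5:95974518-95974617), with the 6 differing positions in capitals.
Odc1: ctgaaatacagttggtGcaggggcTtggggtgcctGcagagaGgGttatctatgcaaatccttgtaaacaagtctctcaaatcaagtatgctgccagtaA
Gm7993: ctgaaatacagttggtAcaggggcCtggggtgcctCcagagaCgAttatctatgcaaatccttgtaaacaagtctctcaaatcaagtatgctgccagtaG
Amd2 is a single-exon gene at chr10:35708675-35711892 on the minus strand and a copy of Amd1, a gene with introns at chr10:40287458-40302186, also on the minus strand. Their coding sequences differ at 1 of 1002 positions (99.9% identity) and their transcripts at 10 of 3198 aligned positions (99.7%, with 4 gap positions not counted). The only coding difference is shown in capitals, in positions 746 to 845 of the coding sequence of Amd1 (chr10:40290137-40290236) and in Amd2 (chr10:35710715-35710814).
Amd1: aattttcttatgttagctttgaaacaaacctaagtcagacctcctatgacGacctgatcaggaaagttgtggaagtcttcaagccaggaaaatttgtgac
Amd2: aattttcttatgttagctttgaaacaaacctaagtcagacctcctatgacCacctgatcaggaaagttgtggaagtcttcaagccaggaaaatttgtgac

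The reads that fell on genes numbered 12669809 to 26388542 in a mouse (median 18202412). Counts are given as CPM (the count of a gene relative to the TMM-scaled total of its library), and levels of different genes are compared only as RPKM (CPM per kilobase of exon). Reads on Htt, the edited gene, reached 178.4 ± 9.80 CPM in WT (SD, n = 7), 185.9 ± 40.1 in KI-96, 123.8 ± 15.3 in KI-571 and 157.7 ± 17.5 in KI-FL mice (n = 4 each). The 12 striatal projection neuron markers were detected in every genotype. The summed markers of cortical excitatory neurons reached 1069.9 CPM in WT replicate 3, where the WT median was 97.2. They reached 445.8 CPM in KI-571 replicate 2, where the median of the genotype was 97.3. In KI-96 and KI-FL mice they were at most 157.8 and 152.4 CPM. WT replicate 3 also had the lowest Odc1 of the WT mice (36.4 CPM), and the part of these markers in that value was not tested. A pair of libraries stood apart in reads outside genes or in detected genes. Reads outside genes made up 24.2% in KI-96 replicate 3 and 11.8% to 12.7% in the rest of its genotype, and 16384 genes were detected in KI-FL replicate 4, while the remaining 3 KI-FL mice had 23177 to 23950. Xist was at least 885.6 CPM in all 4 KI-96 mice, in WT replicate 1 and in KI-FL replicate 2, and at most 5.05 CPM in the others. The sex-linked genes Ddx3y, Uty and Eif2s3y had no reads in KI-96 mice, while Kdm5d of the same list was detected in that genotype. Genotype and this difference can hardly be told apart in any comparison with KI-96 mice, which also holds for the X-linked Sms and Sat1. In whole tissue, fewer cells of a type and less RNA per cell cannot be told apart.

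In WT striatum the antizyme genes had the highest levels per length. Oaz1 reached 97.1 ± 8.07 RPKM and Oaz2 62.7 ± 5.35 RPKM (SD, n = 7). Srm followed with 40.4 ± 6.22 RPKM and Amd1 with 33.5 ± 1.67 RPKM. Azin1 (16.6 ± 0.897 RPKM), Sat1 (14.8 ± 0.770), Sms (14.3 ± 1.15), Odc1 (14 ± 2.02) and Smox (12.3 ± 1.06) lay close together. The ranges over mice of neighbours in this order overlapped from Azin1 down to Smox and between Srm and Amd1, and did not overlap between the other neighbours. The rate-limiting enzyme gene Odc1 was therefore among the lowest of the 10 per length, and far below its antizymes. Amd2 was lowest, at 1.44 ± 0.633 RPKM. These levels rest on uniquely placed reads, so for Amd1, Amd2, Oaz1, Sms and Odc1 they are uncertain, as is the order of close neighbours.

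Odc1 was the member whose level separated a genotype from all the others. In WT mice it ranged from 36.4 to 56.1 CPM with a median of 49.3. In KI-571 mice it was 72.1, 74.3, 71.8 and 76.5 CPM in replicates 1 to 4. In KI-96 mice the values were 59.7, 49.2, 51.7 and 59.1 CPM. In KI-FL mice they were 51.7, 53.5, 48.3 and 39.4 CPM. Each KI-571 mouse was thus above each of the 15 other mice, the highest of which had 59.7 CPM, while WT, KI-96 and KI-FL mice overlapped. The level in KI-571 mice was 1.54-fold that of WT (log2 fold change 0.62 ± 0.11, SE) and 1.53-fold that of KI-FL mice (0.61 ± 0.12), and that of KI-96 mice was 0.745 of KI-571 (−0.42 ± 0.12).

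Odc1 in KI-571 mice led to the choice of the genes, so the counts of calls with this genotype restate that observation and nothing is read from them. They were 1 of 10 (Odc1) for KI-571 against WT, where the background over all 18521 genes at an adjusted p under 0.05 was 0.0324%. For KI-571 against KI-FL it was 0 of the 10, beside 0.0864% of all genes, and for KI-96 against KI-571 it was 0 of 10, beside 0.0054%. Every KI-571 mouse lay above every WT mouse for 0.88% of all genes and above every KI-FL mouse for 2.28%, and every KI-96 mouse lay below every KI-571 mouse for 1.31%. With each of the 19 mice left out in turn, the log2 fold change of Odc1 in KI-571 against WT lay between 0.57 and 0.67. It moved more with the choice of WT mice, to 0.76 against WT replicates 1 to 4 alone and 0.47 against replicates 5 to 7 alone. These numbers only describe the value that led to the choice. Leaving out a KI-96 or KI-FL mouse changes neither of the compared groups.

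**Figure D1:**
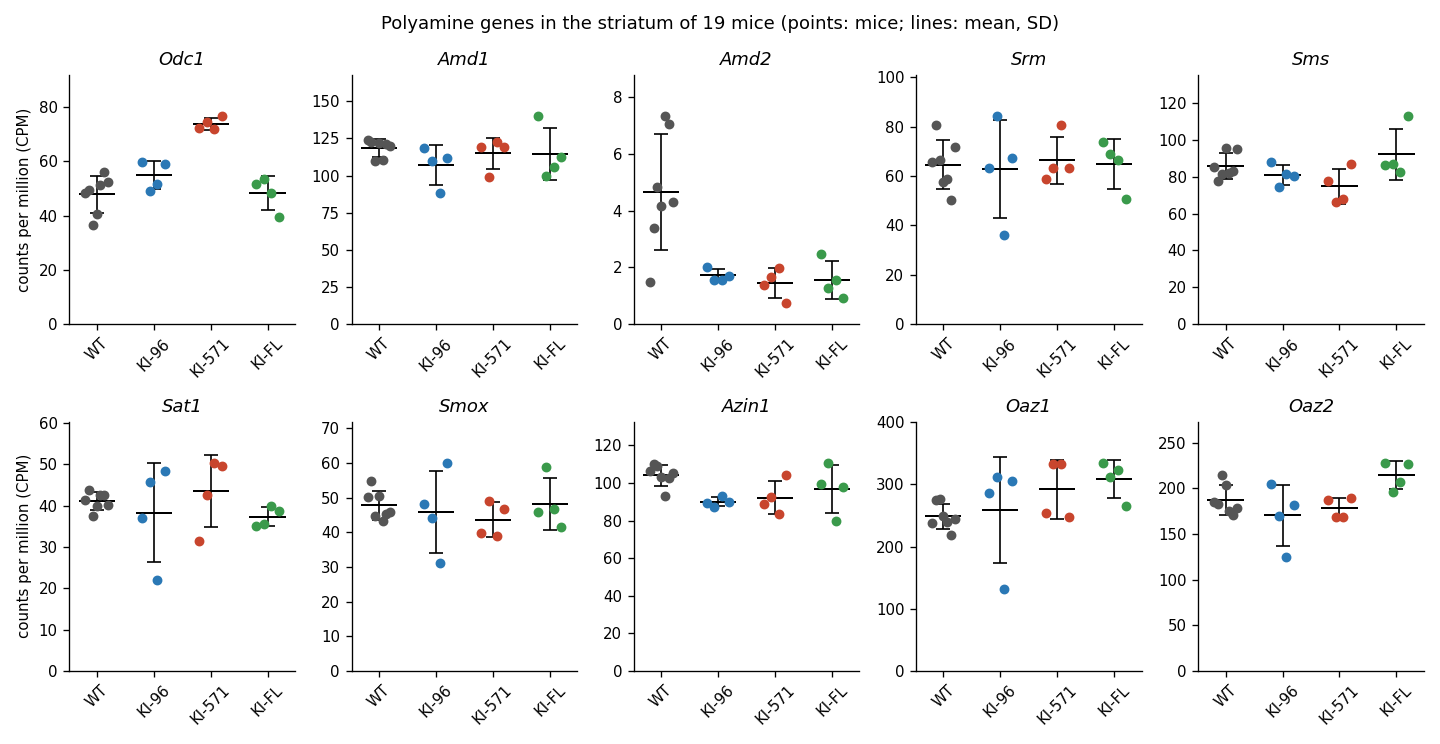
CPM of the 10 polyamine genes (y axes, each from 0) in each mouse by genotype (x axes), with 1 point per mouse and lines for the mean and SD. The 4 Odc1 points of KI-571 lie at 71.8 to 76.5 CPM, above all other mice, Amd2 is above 3 CPM only in WT mice, and 1 KI-96 mouse (replicate 3) is low for Srm, Sat1, Smox, Oaz1 and Oaz2.

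Reads on the Odc1 pseudogene were nearly absent in KI-571 mice. WT mice had 118, 116, 212, 281, 164, 228 and 384 reads on Gm7993 in replicates 1 to 7, and KI-FL mice had 111, 105, 133 and 120. KI-571 mice had 0, 6, 2 and 5 reads. KI-96 mice were split, with 134 and 113 reads in replicates 1 and 2 but 4 and 3 in replicates 3 and 4. So 6 mice had at most 6 reads and the other 13 had at least 105, with nothing between, and all 4 KI-571 mice were among the 6. The share of all genes with such a split was not determined. Every KI-571 mouse lay below every WT mouse for 0.67% of all genes, and below every KI-FL mouse for 2.04%. The share of Gm7993 in the reads of both genes was 11.2% to 26.4% in WT mice and 12.2% to 16.6% in KI-FL mice, but at most 0.478% in the 6 mice. The pseudogene (chr5:95974240-95975623) lies on the same chromosome as Htt (chr5:34761740-34912534), far from it. Whether this has to do with the read counts was not tested. How many reads of one copy were assigned to the other was not tested.

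Adding the reads of both genes made the difference in KI-571 mice smaller. The sum was 48.9 to 67.1 CPM in WT (median 55.5), 51.9 to 69.3 in KI-96 and 47.3 to 61.8 in KI-FL mice, and 72.1, 74.6, 71.9 and 76.8 CPM in the KI-571 mice. The KI-571 mice still lay above all 15 others, but by less. The log2 fold change of the sum against WT was 0.36 instead of 0.62. When every gene that shares a 100-base window with Odc1 was added, it was 0.32. For KI-96 against WT, the sum changed the log2 fold change of Odc1 from 0.20 (edgeR adjusted p = 0.703) to 0.04 (adjusted p = 0.964). KI-96 replicates 3 and 4, with 4 and 3 reads on Gm7993, had 51.7 and 59.1 CPM of Odc1, within the 49.2 to 59.7 CPM of replicates 1 and 2.

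**Figure D2:**
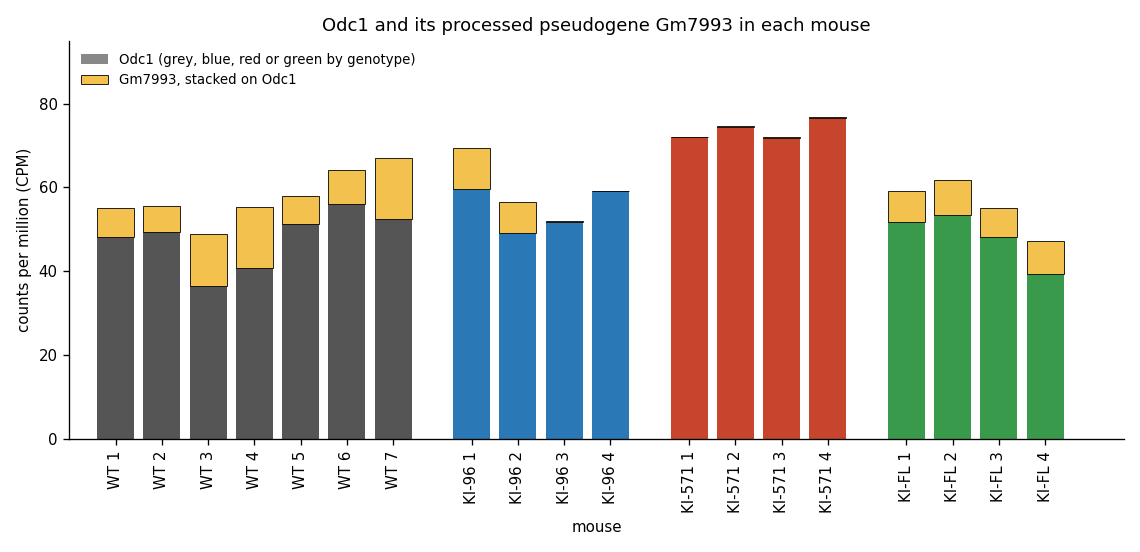
CPM (y axis, from 0) of Odc1 (coloured by genotype) and Gm7993 (yellow, stacked on top) in each of the 19 mice (x axis). Yellow is nearly absent in the 4 KI-571 mice and in KI-96 replicates 3 and 4, and the full bars of KI-571 (71.9 to 76.8 CPM) remain above those of the other mice (at most 69.3 CPM).

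Red blood cell markers were also highest in KI-571 mice. The summed CPM of the 7 markers (all detected) ranged from 163.4 to 485.4 there, against 79.6 to 214.5 in WT, 86.9 to 141.3 in KI-96 and 43.8 to 103.6 in KI-FL mice. The 7 choroid plexus markers ranged from 47.3 to 5371 CPM in KI-571 and from 38.8 to 3049 in KI-FL mice, against 46.1 to 411.6 in WT and 37.5 to 94.4 in KI-96 mice. The 8 astrocyte markers (all detected) ranged from 4356 to 4870 CPM in KI-571, 4069 to 4858 in WT, 4191 to 4909 in KI-96 and 3814 to 4191 CPM in KI-FL mice, so that KI-571 mice lay above all KI-FL mice and overlapped with the others. The part of these markers in the Odc1 values was not tested.

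In the comparisons that did not lead to the choice of the genes, no member passed the threshold. Between KI-96 and WT mice 0 of the 10 genes had an edgeR adjusted p under 0.05 (0.027% of all genes did) and 2 had an unadjusted p under 0.05 (7.45% of all genes), both lower in KI-96 mice. Between KI-FL and WT mice the counts were 0 (0.194%) and 1 (16.7%). Between KI-96 and KI-FL mice they were 0 (0.0%) and 1 (8.9%). DESeq2 called 1, 1 and 0 of the 10 genes in these comparisons, Amd2 in the first and second. Over all 36741 genes it tested, DESeq2 called 30, 573 and 44, while edgeR called 5, 36 and 0 of 18521. The median log2 fold change of the 10 genes was −0.09 in KI-96 against WT (−0.02 over all genes), 0.01 in KI-FL against WT (−0.03) and −0.08 in KI-96 against KI-FL mice (0.02). The first 2 comparisons share the WT mice.

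For Odc1 itself, the difference between KI-FL and WT mice was smaller than the spread between mice. Its log2 fold change was 0.01 with a 95% interval of −0.21 to 0.24 (edgeR adjusted p = 0.963). Between KI-96 and WT mice the interval was −0.03 to 0.43, and between KI-96 and KI-FL mice it was −0.07 to 0.44 around 0.19 (adjusted p = 0.676).

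Amd2, the intronless copy of the S-adenosylmethionine decarboxylase gene, had lower values in the knock-in mice of all 3 genotypes than in most WT mice. WT mice ranged from 1.49 to 7.32 CPM with a median of 4.31, on 26 to 199 reads. KI-96 mice had 2.02, 1.57, 1.57 and 1.70 CPM. KI-571 mice had 1.39, 1.67, 1.97 and 0.752 CPM. KI-FL mice had 2.46, 1.27, 1.57 and 0.914 CPM. In 6 of 7 WT mice Amd2 was at 3.37 CPM or more, above all 12 knock-in mice (at most 2.46), and WT replicate 1 lay among the knock-in mice. Each knock-in genotype thus overlapped with WT. This split was counted after the values were seen, and its share over all genes was not determined. The difference did not pass the edgeR threshold. The log2 fold change was −1.44 ± 0.37 (SE) for KI-96 (unadjusted p = 0.000865, adjusted p = 0.433) and −1.58 ± 0.38 for KI-FL against WT (unadjusted p = 0.000409, adjusted p = 0.0716). For KI-571 against WT it was −1.69 ± 0.38, as a description. KI-96 and KI-FL mice differed by 0.14 ± 0.42 (adjusted p = 0.936), with a wide interval from −0.73 to 1.01.

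The call of Amd2 depended on the tool and on the WT mice. DESeq2 gave adjusted p = 0.0401 for KI-96 and 0.00383 for KI-FL against WT. Against WT replicates 5 to 7 alone, the log2 fold change for KI-FL was −2.0 (edgeR adjusted p = 0.0408), and against replicates 1 to 4 alone it was −1.16 (adjusted p = 0.497). Without WT replicate 1, the values were −1.60 for KI-96 (adjusted p = 0.106) and −1.74 for KI-FL mice (adjusted p = 0.0515). WT replicate 1, low for Amd2, was also the only WT mouse with high Xist, as were all KI-96 mice. With Xist as a covariate the KI-96 value was −0.30 (adjusted p = 1.0) and the KI-FL value −1.31 (adjusted p = 0.129). Within KI-96 mice genotype and Xist cannot be told apart, and that fit rests on WT replicate 1 and KI-FL replicate 2.

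Amd1, with many more reads, overlapped between all genotypes. It ranged from 109.7 to 124.2 CPM in WT, from 88.0 to 118.9 in KI-96, from 99.3 to 122.4 in KI-571 and from 100 to 139.9 CPM in KI-FL mice. Its log2 fold change against WT was −0.15 ± 0.10 in KI-96 (adjusted p = 0.766), −0.05 ± 0.10 in KI-FL (adjusted p = 0.821) and −0.04 ± 0.10 in KI-571 mice. Amd2 made up 1.19% to 6.22% of the reads of the pair in WT mice and 0.626% to 1.76% in knock-in mice. Summed, the pair gave −0.18 for KI-96 (adjusted p = 0.703) and −0.09 for KI-FL against WT (adjusted p = 0.678). Because most windows of the pair are identical, only the reads that cover a difference count for either gene, and transcripts of Amd1 and Amd2 cannot be fully told apart.

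The aminopropyl transferase genes showed small differences. Srm, the spermidine synthase gene, had means of 64.5 ± 9.95 CPM in WT, 62.8 ± 19.8 in KI-96, 66.5 ± 9.57 in KI-571 and 64.9 ± 10 in KI-FL mice, and its log2 fold changes were −0.04 in KI-96 (adjusted p = 0.975) and 0.01 in KI-FL against WT (adjusted p = 0.984). Sms, the spermine synthase gene on the X chromosome, had means of 85.7 ± 6.90 CPM in WT, 81.0 ± 5.45 in KI-96, 74.7 ± 9.55 in KI-571 and 92.1 ± 13.8 in KI-FL mice. Its highest value, 112.7 CPM, was in KI-FL replicate 4, the library with few detected genes. Without that mouse the log2 fold change of Sms in KI-FL against WT went from 0.10 (adjusted p = 0.606) to −0.01 (adjusted p = 0.980).

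The values of the breakdown genes overlapped between genotypes. Sat1, also on the X chromosome, ranged from 37.4 to 43.7 CPM in WT, from 22 to 48.5 in KI-96, from 31.5 to 50.3 in KI-571 and from 35.2 to 40.0 CPM in KI-FL mice. Its log2 fold change against WT was −0.10 ± 0.15 in KI-96 (adjusted p = 0.921) and −0.14 ± 0.15 in KI-FL mice (adjusted p = 0.675). Smox ranged from 43.2 to 54.7 CPM in WT, from 31.0 to 59.9 in KI-96, from 39.0 to 49.1 in KI-571 and from 41.5 to 58.7 CPM in KI-FL mice, with log2 fold changes of −0.06 (adjusted p = 0.954) and 0.01 (adjusted p = 0.975). The 95% intervals of both genes in KI-96 and KI-FL against WT lay between −0.46 and 0.29 on the log2 scale, so that larger changes lie outside them.

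Among the regulators, Oaz1 had higher means in all knock-in genotypes than in WT, with overlapping mice. WT mice ranged from 219.2 to 276.2 CPM (median 243.5). KI-96 mice had 285.8, 312.4, 131.3 and 304.7 CPM, KI-571 mice 253.9, 333.0, 332.0 and 248.1 CPM, and KI-FL mice 334.0, 311.6, 323.7 and 265.0 CPM. The log2 fold change was 0.06 ± 0.16 in KI-96 (unadjusted p = 0.725, adjusted p = 0.966), 0.31 ± 0.16 in KI-FL (unadjusted p = 0.0658, adjusted p = 0.332) and 0.23 ± 0.16 in KI-571 against WT. Without KI-96 replicate 3 the KI-96 value was 0.28 (unadjusted p = 0.0164, adjusted p = 0.662), and without KI-FL replicate 4 the KI-FL value was 0.38 (unadjusted p = 0.0458, adjusted p = 0.363). The means of Oaz2 lay on both sides of WT, at 187.4 ± 16.0 CPM in WT, 170.5 ± 33.4 in KI-96, 178.4 ± 11.3 in KI-571 and 214.4 ± 15.6 in KI-FL mice. It was lower in KI-96 than in KI-FL mice by a log2 fold change of −0.33 ± 0.12 that did not pass the threshold (unadjusted p = 0.0107, adjusted p = 0.442), and without KI-96 replicate 3 this was −0.20 (unadjusted p = 0.0579, adjusted p = 0.773). The KI-571 mice (168.6 to 189.2 CPM) all lay below the KI-FL mice (196.3 to 227.7), as they did for 2.04% of all genes. Azin1, the antizyme inhibitor gene, ranged from 93.0 to 109.8 CPM in WT and from 87.4 to 93.1 CPM in KI-96 mice, with a log2 fold change of −0.21 ± 0.09 (unadjusted p = 0.0219, adjusted p = 0.639). It was −0.10 ± 0.09 in KI-FL (adjusted p = 0.546) and −0.18 ± 0.09 in KI-571 against WT.

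**Figure D3:**
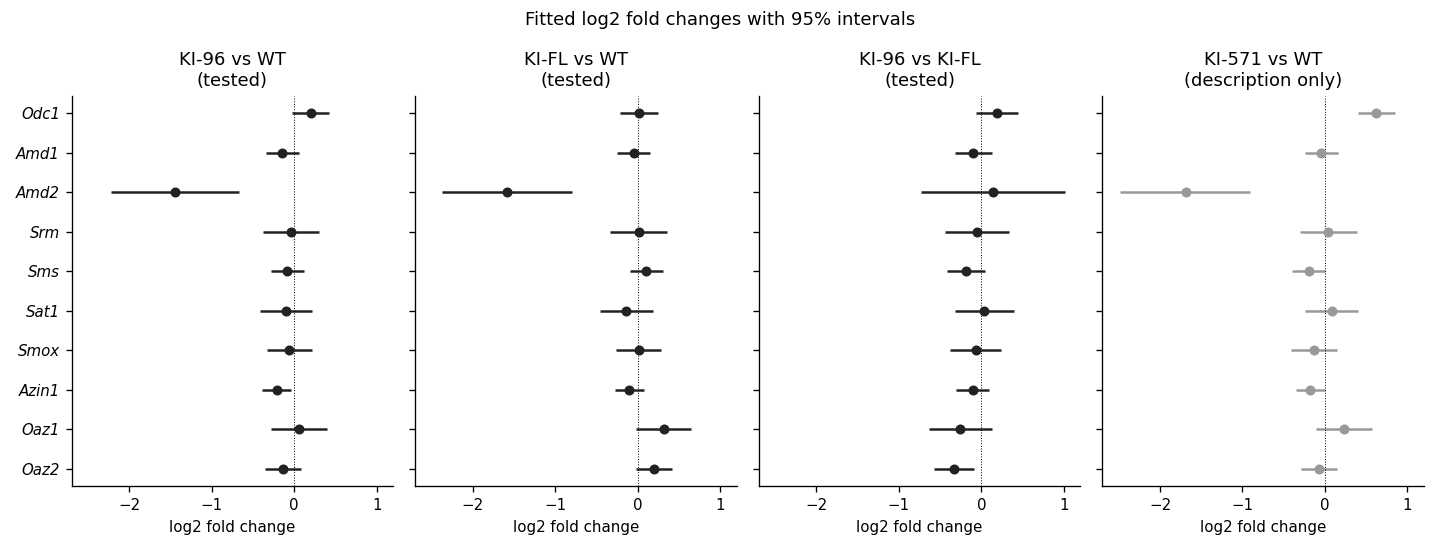
Log2 fold changes (x axes) of the 10 genes (y axis) from the fit to all 19 mice, with points for estimates and lines for 95% intervals, in 3 tested comparisons (black) and in KI-571 against WT as a description (grey). Most points lie near 0, Amd2 lies at −1.44 and −1.58 against WT in KI-96 and KI-FL mice, and Odc1 lies at 0.62 only in KI-571.

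KI-96 replicate 3 lay outside the range of the other KI-96 mice for many genes. In this mouse 6 of the 10 genes were below the other 3 mice, as were 34.4% of all 18521 genes, 3 were within their range and 1 was above it (33.3% of all genes). Oaz1 was at 131.3 CPM, 0.436 of the mean of the others, Sat1 at 0.503, Srm at 0.507, Smox at 0.611, Oaz2 at 0.676 and Amd1 at 0.775. Odc1 was at 0.924 and Amd2 at 0.892 of that mean, while Sms (1.01) and Azin1 (1.05) were not lower. Without this mouse 0 of the 10 genes passed the edgeR adjusted threshold in KI-96 against WT, and 3 had an unadjusted p under 0.05 (6.58% of all genes in that fit).

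The correlations between members also changed without this mouse. Over the deviations of the 19 mice from their genotype means, 7 of 45 pairs of members had a Pearson r over 0.6, led by Srm and Oaz1 (r = 0.866), and Sat1 and Oaz1 (r = 0.745). Without KI-96 replicate 3, 1 pair did, Srm and Oaz1 (r = 0.714), and Sat1 and Oaz1 gave r = 0.184. An r under −0.5 was found for 0 pairs with this mouse and for 3 without it, which were Sms and Oaz1 (−0.385 with and −0.76 without), Srm and Sms (−0.408 and −0.562), and Odc1 and Oaz2 (−0.242 and −0.529). The r of Odc1 was 0.052 with Oaz1 and 0.018 with Azin1 over all mice, and −0.144 and 0.036 without this one. The mice share sequencing depth and scaling across genes, and these values are a description.

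Over the 19 mice the log2 CPM of Odc1 was most like that of Kank2 (r = 0.86), Dapp1 (r = 0.787), Rpl3 (r = 0.784), Pdpn (r = 0.77) and Scara3 (r = 0.767), out of 11847 genes with a mean of at least 5 CPM. The least like were Ipo9 (r = −0.873) and A730060N03Rik (r = −0.846). Rpl3 encodes a protein of the large ribosomal subunit and Ipo9 a nuclear import receptor. Rpl3 had means of 283.6 CPM in WT, 493.4 in KI-96, 594.8 in KI-571 and 259.1 CPM in KI-FL mice, and Ipo9 had 153.0, 140.2, 127.3 and 161.6 CPM. The ranking uses the KI-571 values of Odc1, so that high levels in KI-571 mice are built into it. Gm7993 had r = −0.743 with Odc1.

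Pseudogenes named for the members had few reads. Oaz2-ps (chr3:135525964-135526532, minus strand) had 22 to 46 reads in WT and 5 to 8 in KI-571 mice. All KI-571 mice lay below all WT mice in CPM, as they did for 0.67% of all genes. In KI-96 mice it had 22, 17, 3 and 3 reads in replicates 1 to 4, so that the same mice were low as for Gm7993, and in KI-FL mice it ranged from 7 to 77. Its reads were at most a few CPM (highest 5.03) against 125.3 CPM or more for Oaz2. Oaz1-ps had 21 to 74 reads over all genotypes, Sms-ps 3 to 35, Amd-ps3 6 to 26, Amd-ps4 0 to 28 and Amd-ps1 0 to 1.

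Genes around the pathway were described in 5 lists with 54 genes, of which 47 were tested, and 0 of them had an edgeR adjusted p under 0.05 in any of the 6 comparisons. DESeq2 called 1 in KI-96 against WT (Adi1), 1 in KI-FL against WT (Slc7a2) and 0 in the others. Of 36741 genes, DESeq2 called 30 in KI-96 against WT and 573 in KI-FL against WT. At an unadjusted p under 0.05, 1 was higher and 5 were lower in KI-96 than in WT mice (7.45% of all genes reached that level in either direction), 5 were higher and 6 lower in KI-FL than in WT mice (16.7%), and 2 were higher and 4 lower in KI-96 than in KI-FL mice (8.9%). The counts were 0 and 3 for KI-571 against WT (7.72%), 2 and 1 for KI-571 against KI-FL (8.9%) and 0 and 2 for KI-96 against KI-571 (5.51%). Of 12 tested polyamine enzymes, antizyme relatives and transporters, 1 was higher and 1 lower in KI-FL than in WT mice at that level, with a median log2 fold change of 0.04. Atp13a4, which encodes a P5B-type ATPase, had the smallest p of this list, with 11.1 ± 0.819 CPM in KI-FL and 14.5 ± 3.32 CPM in WT mice (log2 fold change −0.39 ± 0.16, unadjusted p = 0.0235, adjusted p = 0.227).

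Of the 10 tested genes of arginine and ornithine supply, 1 was higher and 3 were lower in KI-FL than in WT mice at an unadjusted p under 0.05 (16.7% of all genes), with a median log2 fold change of −0.01. Slc7a2, a transporter of arginine, lysine and ornithine, had 27.7 ± 5.84 CPM in KI-FL and 41.6 ± 7.01 CPM in WT mice, a log2 fold change of −0.59 ± 0.14 (unadjusted p = 0.000439, adjusted p = 0.0739). With DESeq2 it was −0.60 (adjusted p = 0.00972). It had 38.3 ± 3.51 CPM in KI-96 mice, and KI-96 and KI-FL mice differed by 0.47 ± 0.16 (unadjusted p = 0.00725, adjusted p = 0.439).

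The methionine cycle and salvage list includes genes that recycle the methylthioadenosine released by spermidine and spermine synthesis. Of its 12 tested genes, 3 were lower and 0 higher in KI-96 than in WT mice at an unadjusted p under 0.05 (7.45% of all genes), with a median of −0.15 (−0.02 over all genes), and 2 were higher and 2 lower in KI-FL than in WT mice (16.7%), with a median of −0.02. Mri1, an isomerase of the salvage pathway, had 17.5 ± 7.51 CPM in KI-FL and 12.4 ± 2.08 CPM in WT mice (log2 fold change 0.51 ± 0.19, unadjusted p = 0.012, adjusted p = 0.182). Adi1, a dioxygenase of the same pathway named here after its values were seen, had 25.1 ± 5.61 CPM in KI-96 and 51.0 ± 15.5 CPM in WT mice (−1.02 ± 0.26, unadjusted p = 0.00084, adjusted p = 0.433), and DESeq2 gave adjusted p = 0.0499. Its log2 fold change against WT was −0.54 ± 0.26 in KI-FL (unadjusted p = 0.0475, adjusted p = 0.293) and −0.79 ± 0.26 in KI-571 mice, and KI-96 and KI-FL mice differed by −0.48 ± 0.29 (adjusted p = 0.643).

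All 4 genes of the hypusine pathway were tested, and 0 had an unadjusted p under 0.05 in KI-96 or KI-FL against WT mice. Dhps, which starts hypusine formation from spermidine, had the smallest p of these 4 in KI-FL mice, with 22.9 ± 7.08 CPM against 19.4 ± 2.20 CPM in WT (0.24 ± 0.15, unadjusted p = 0.126, adjusted p = 0.428). Of the 9 genes of the MYC network, whose transcription factors are known to act on Odc1, 1 was higher and 0 lower in KI-FL than in WT mice at that level. This was Mxd4, a MAX partner, with 104.4 ± 13.8 CPM against 85.7 ± 6.73 CPM in WT (0.28 ± 0.10, unadjusted p = 0.0118, adjusted p = 0.181). The median of the list was 0.16 in KI-FL and 0.01 in KI-96 against WT.

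**Figure D4:**
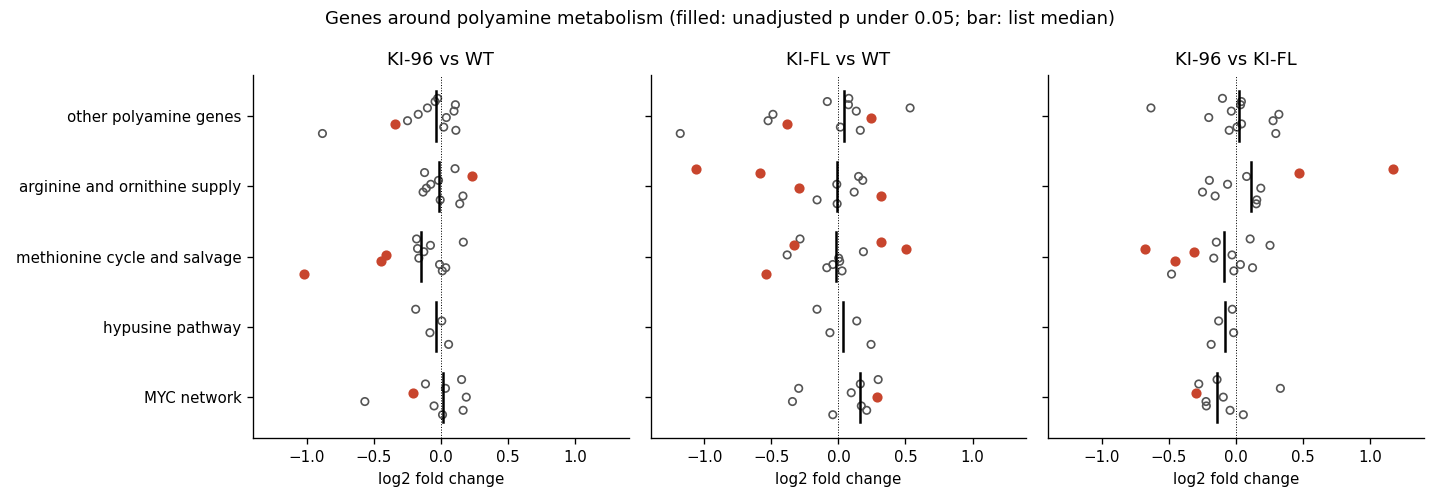
Log2 fold changes (x axes) of the 47 tested genes of 5 lists around polyamine metabolism (y axis) in 3 comparisons, with filled points for an unadjusted p under 0.05 and bars for list medians. Points spread on both sides of 0, and 0 genes passed the adjusted threshold of edgeR.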

How the data were processed

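RNA of the striatum of 19 mice was measured by RNA sequencing, and the mice were grouped by the genotype in their labels. The authors deposited raw counts per gene, made by trimming with BBduk, alignment to GRCm38 with STAR and counting with HTSeq (versions, annotation and strand setting: not given in the sources used here). 4 columns of other samples and 5 summary lines were not used. Depth on genes was 12669809 to 26388542 counts. Counts were fitted with edgeR 4.0.16 in R 4.3.3 (TMM, filterByExpr with a minimum count of 10 and total of 15, quasi-likelihood test, all 19 mice, no covariate, since the sacrifice batch of the study's model is not in the labels), and p-values were adjusted over 18521 genes by the Benjamini-Hochberg method, and 0.05 was the threshold. The fitted biological CV was 0.24. Mice are separate animals as far as the labels say, and the least different of 39 pairs of one genotype had a chi-square of 8.56 per degree of freedom, so each was kept as its own replicate. log2 CPM used a prior count of 2. Exons and sequences came from GENCODE mouse release 21, and shared windows of 100 bases were searched over its transcripts on both strands. The fit was tested on simulated counts.

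The 10 members and the lists were chosen with earlier results of these data known. Named were all members, the gene of smallest p of each list in KI-FL against WT, genes called by edgeR in a list (none), the 5 genes most and 2 least like Odc1, and pseudogenes with a member's symbol followed by -ps. Alternatives were DESeq2 1.42.0, its size factors, other filters, a threshold of 0.1, only the groups compared, Xist or 1 surrogate variable (sva 3.50.0) as covariate, the replicate number as a block, WT replicates 1 to 4 or 5 to 7 alone, each mouse left out, and summed copies. Sums with Gm7993 and with all window-sharing genes were added after seeing the data.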

Additional observations from a re-analysis of the deposited data

Results flagged for a closer look

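Among 56 groups of values checked for a mouse far from the others of its genotype, 5 were flagged, and chance flags about 1 in 20 groups, or 2.8 of 56. Oaz1 was at 131.3 CPM in KI-96 replicate 3, against 285.8 to 312.4 CPM in the other KI-96 mice, and 24.2% of the reads of this mouse lay on no gene, against 11.8% to 12.7%. Sms was at 112.7 CPM in KI-FL replicate 4, against 82.7 to 86.9 CPM in the other KI-FL mice, and this library had 16384 detected genes, against 23177 to 23950. Amd1 was at 99.3 CPM in KI-571 replicate 2, against 119.2 to 122.4 CPM in the other KI-571 mice.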

How the results depend on the processing

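Of the 744 other values recomputed under alternatives for single genes and lists, 704 kept their direction and side of the threshold or moved by less than the spread between mice. The cause of the other changes was not tested. Since almost no value passed the threshold in the main fit, keeping its side says little. The 704 include Amd2 in KI-96 against WT with Xist, at −0.30 instead of −1.44. Counts of calls in KI-571 comparisons, here and with 1 mouse left out, rest on the genotype that led to the choice. Nothing about the members is read from them. In KI-571 against WT, 1 member was called. This count was 2 with DESeq2 and without the filter on low counts. It was 0 against WT replicates 1 to 4 alone, with the replicate block, with Odc1 and Gm7993 summed (log2 fold change 0.36) and with all window-sharing genes summed in (0.32). Over all genes, the main fit called 6 of 18521, DESeq2 99 of 36741 and the fit without the filter 78 of 36846. The settings with 0 members called 0, 1, 3 and 3 genes in the order given. In KI-571 against KI-FL, 0 members were called, and 1 was at a threshold of 0.1, with DESeq2, with its size factors, without the filter and with at least 10 counts in every mouse. Over all genes, the main fit called 16 there. The last 4 of these settings called 117, 17, 25 and 12 genes. In KI-FL against WT, 0 were called, and 1 (Amd2) was at a threshold of 0.1, with DESeq2 and against WT replicates 5 to 7 alone, and in KI-96 against WT the count was 1 with DESeq2. Over all genes in KI-FL against WT, the main fit called 36, DESeq2 573 and the fit against WT replicates 5 to 7 called 40. In KI-96 against WT the main fit called 5 genes and DESeq2 30. With 1 mouse left out, the count ranged from 0 to 1 in KI-571 against WT (0 without any one of WT replicates 1, 3, 4, 5 or 7 or KI-571 replicates 1, 2 or 4) and in KI-571 against KI-FL (1 without WT replicate 3).

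Replicate numbers were not used as pairs in the main fit. Of 24 same-numbered pairs, 5 had r over 0.1 (range −0.128 to 0.29), among them KI-96 with KI-571 in replicates 1, 2 and 4 (0.16, 0.105 and 0.29). Differently numbered pairs were not compared, so these values cannot exclude a pairing or a shared batch. With the replicate block, 0 members were called in the 6 comparisons, and Odc1 in KI-571 against WT was at 0.76.

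Changes of sign outside the KI-571 comparisons, in values that passed no threshold, were as follows. For KI-96 against WT, they were Srm (0.056) and Smox (0.0345) against WT replicates 5 to 7 alone, and Oaz1 with the replicate block (−0.0181) and against WT replicates 1 to 4 alone (−0.0057). For KI-FL against WT, Odc1 was at −0.0018 with DESeq2, −0.0004 with its size factors, −0.0202 without the filter, −0.006 with at least 10 counts, −0.143 against WT replicates 5 to 7 alone, −0.0587 with Gm7993 and −0.0992 with all window-sharing genes. In the same comparison Srm was at −0.0041, −0.0034, −0.0209 and −0.0079 in the first 4 of these settings, −0.0552 with the block and −0.0674 against WT replicates 1 to 4 alone. Smox was at −0.0024, −0.0018, −0.0214 and −0.0064 in those 4, −0.0296 with Xist, −0.052 with the block and −0.0642 against WT replicates 1 to 4, and Sms was at −0.0302 with 1 surrogate variable. With the surrogate variable, Amd2 was at −0.0189 and Sat1 at −0.0049 in KI-96 against KI-FL. In the KI-571 comparisons, described without a test, Srm was at −0.0085 with the block and −0.0255 against WT replicates 1 to 4 alone, and Oaz2 at 0.0278 against WT replicates 5 to 7 alone (all KI-571 against WT). Against KI-FL, Amd1 was at −0.013 with Xist and, with the surrogate variable, −0.0022, and Srm was at −0.1239. Smox in KI-96 against KI-571 was at −0.0902 with Xist.

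With 1 mouse left out, ranges that crossed 0 in KI-96 against WT were −0.2139 to 0.147 (Srm), −0.2371 to 0.0899 (Sat1), −0.046 to 0.2751 (Oaz1) and −0.2178 to 0.0884 (Smox). In KI-FL against WT they were −0.0528 to 0.097 (Odc1), −0.1719 to 0.0104 (Amd1), −0.0702 to 0.111 (Srm), −0.008 to 0.1416 (Sms) and −0.0979 to 0.0744 (Smox). In KI-96 against KI-FL they were −0.1565 to 0.0226 (Amd1), −0.0475 to 0.4532 (Amd2), −0.2227 to 0.1495 (Srm), −0.0982 to 0.2414 (Sat1) and −0.2274 to 0.091 (Smox). Depth limits Amd2 most, with 14 to 41 reads in knock-in mice.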
